A study of Rattus norvegicus with 6 samples.

Results

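The 10 genes described here belong to the cytosolic heat shock system and were measured in pancreatic tissue of rats given either a control or an ethanol diet.
They are the HSP70 chaperone Hspa1a, its partners Hsph1, Dnajb1, Dnaja1, Dnaja2 and St13, the small heat shock proteins Hspb1 and Hspb6, and the transcription factors Hsf1 and Hsf2.
The series' design text gives 3 rats per diet, and each diet has 3 single-colour arrays, which are read here as 1 rat per array.
The labels describe each group by its diet alone; neither strain and age nor ethanol dose and length of feeding is stated there, and the series title calls the consumption chronic.
The genes were picked out of the 10411 genes with a probe set of their own on the array, and were chosen on the intensities reported here, largely by how they differed between the diets, together with known chaperone function.
Their differences between diets are therefore given as a description, without a test.
The 10 genes have 13 probe sets annotated to 1 gene, and all 13 passed the filter on low values used for the series.

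Cytosolic chaperones bind unfolded or partly folded proteins and keep them from aggregating.
HSP70 binds and releases its clients in a cycle driven by ATP: J-domain proteins such as Dnajb1, Dnaja1 and Dnaja2 deliver clients and start ATP hydrolysis, St13 (also called Hip) holds the closed state, and HSP110 proteins such as Hsph1 exchange the nucleotide and so open it again.
Small heat shock proteins hold unfolded proteins without using ATP.
Under proteotoxic stress the factor HSF1, which is regulated largely at the level of the protein rather than the transcript, binds heat shock elements, inverted repeats of a short GAA unit, and raises the transcription of the inducible members.
In the exocrine pancreas, whose acinar cells make protein at a very high rate, heat shock proteins have been studied for their part in the response to pancreatitis.

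Promoter windows show where such elements lie and are printed because several members read higher together on these arrays.
RefSeq windows of the GRCr8 rat assembly, from 250 bases before to 50 bases after the annotated start of a gene, were held for 7 of the 10 genes; Dnaja2, St13 and Hsf1 had none in the table used.
They were searched for a pair of inverted units, either as GAANNTTC or as TTCNNGAA, each of which reads the same on both strands; the patterns can overlap, and 3 alternating units are counted separately.
The stretches below run 5′ to 3′ along the gene, with the pairs in capitals.
Hsph1, chr12:10427243-10427364, plus strand: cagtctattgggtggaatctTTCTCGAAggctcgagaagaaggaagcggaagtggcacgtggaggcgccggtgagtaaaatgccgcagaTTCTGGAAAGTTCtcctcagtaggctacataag
Hspb1, chr12:26432383-26432450, minus strand: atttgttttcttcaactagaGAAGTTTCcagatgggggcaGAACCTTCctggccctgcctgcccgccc
Dnajb1, chr19:41431142-41431172, minus strand: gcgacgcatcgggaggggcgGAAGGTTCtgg
Dnaja1, chr5:60638203-60638250, plus strand: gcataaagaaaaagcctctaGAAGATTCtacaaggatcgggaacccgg
Dnaja1 near its start, chr5:60638405-60638433, plus strand: gccgggcgGAACTTTCCAGAAcgctcggt
Hspb6, chr1:94934122-94934250, plus strand: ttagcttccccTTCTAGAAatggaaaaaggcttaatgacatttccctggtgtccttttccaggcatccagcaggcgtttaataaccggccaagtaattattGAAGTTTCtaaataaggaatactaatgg

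A pair was found in 5 of the 7 windows, those of Hsph1, Hspb1, Dnajb1, Dnaja1 and Hspb6, against 15.9% of all 33469 windows of the same length.
A run of 3 alternating units stood in the windows of Hsph1, with the first base 36 bases before the start, and of Dnaja1, just after the start; 0.798% of all windows held such a run.
The pairs of Hspb1 began 129 and 109 bases before the start, and those of Hspb6 239 and 149 bases before it.
Dnajb1 had a pair that began 11 bases before the start and another after it.
No pair was found in the windows of Hspa1a and Hsf2, which says only that these letters are not in these windows.
Among the genes of the wider chaperone lists described further on, 20 of 76 windows held a pair and 6 held 3 units.
These matches describe the sequence and are not measured binding sites. Among the genes with a pair, Hsph1, Hspb1, Dnajb1 and Dnaja1 read higher on the ethanol diet and Hspb6 read lower. Of the genes without one in the window searched, Hspa1a read higher and Hsf2 overlapped between diets. Whether heat shock elements, inside or outside these windows, had a part in any of these readings was not tested.

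The arrays carried the transcripts of a pancreas: all 9 acinar enzyme markers with a probe set of their own were measured, and summed to between 1223384 and 1288127 intensity units per array, with Cpa1 and Pnlip the brightest.
The deposited arrays had medians of 543 or 544.
The 3′ to 5′ signal ratio, a measure of RNA integrity, lay between 1.44 and 2.01 for beta-actin and between 1.52 and 2.11 for GAPDH.
Of 7106 genes tested with limma, each on its probe set of highest mean, 31 (0.436%) passed an adjusted p of 0.05.
All 3 ethanol arrays lay above all 3 control arrays for 11.0% of genes and below them for 15.4%, and 18.8% had an unadjusted limma p under 0.05.
Of the 10 chaperone and HSF genes, 5 read higher on every ethanol array than on any control array, 3 read lower on every one, and Hsf1 and Hsf2 overlapped; 1 of the 10, Hsph1, was among the 31.
As the genes were selected on this contrast, nothing is read from that count.
Arrays of whole tissue cannot tell a change in the number of cells of a type from a change in RNA per cell.

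**Figure D1:**
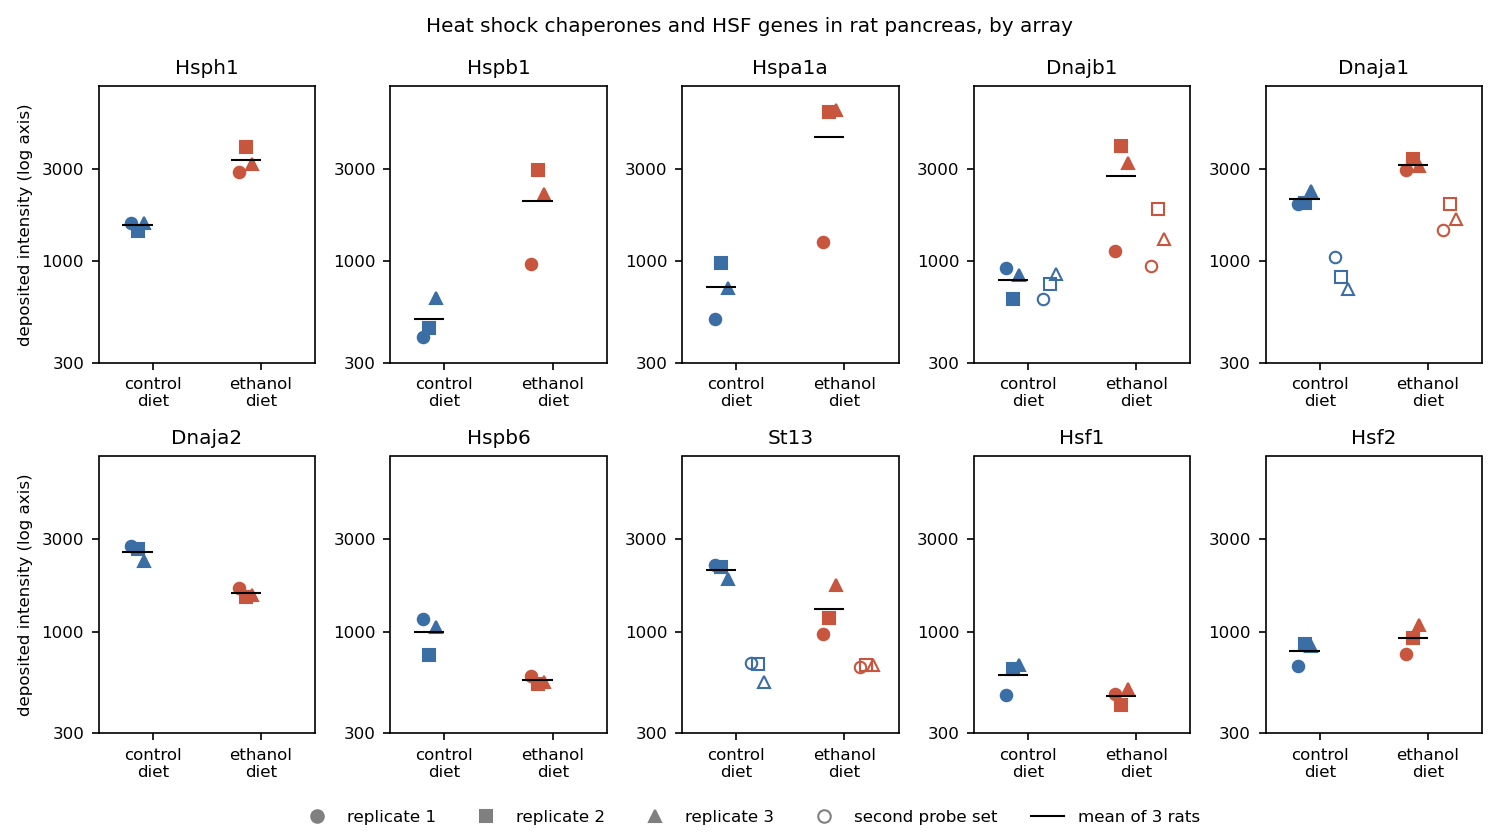
Deposited intensity (log axis) of the 10 genes on each array, control rats in blue and ethanol rats in red, with the replicate as the symbol, the mean of 3 rats as a bar and a second probe set as open symbols. For Hspa1a, Hspb1 and Dnajb1 the ethanol replicate 1 (circle) sits well below the other two ethanol rats, while Hsph1, Dnaja1, Dnaja2 and Hspb6 are tightly grouped on the ethanol diet.

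Hspa1a (probe set 1370912_at), the stress-inducible HSP70, differed most.
Control replicates 1, 2 and 3 read 500, 980 and 729, and ethanol replicates 1, 2 and 3 read 1260, 5847 and 6033.
The groups did not overlap, yet the lowest ethanol rat lay closer to the highest control rat than to the other ethanol rats.
The difference on the log2(intensity + 50) scale, ethanol minus control, was 2.24 (SE 0.55, n = 3 per diet), and the ethanol rats spanned 4.79-fold among themselves against 1.96-fold for the controls.
A further probe set is annotated to Hspa1a together with its neighbouring copy Hspa1b, so it is not counted as a member.
It read 466, 699 and 576 in control rats and 1709, 5209 and 4309 in ethanol rats, with the same low first ethanol rat.
The log2 values of both probe sets correlated with r = 0.975 over the 6 arrays, and near-identical copies can share signal on either.

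Hsph1 (probe set 1388898_at), the HSP110 exchange factor that resets HSP70, differed less but far more evenly.
It read 1578, 1438 and 1578 in control replicates 1, 2 and 3, and 2885, 3899 and 3151 in ethanol replicates 1, 2 and 3.
Every ethanol rat was well above every control, and the ethanol rats spanned only 1.35-fold.
The log2 difference was 1.08 (SE 0.16).

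The J-domain partners of HSP70 did not go one way.
Dnajb1, the class B protein best known as the HSP40 of the heat shock response, read 925, 638 and 846 in control rats and 1125, 3937 and 3209 in ethanol rats on its brighter probe set, 1388722_at (log2 difference 1.56, SE 0.41).
As for Hspa1a, the first ethanol rat was only just above the controls.
The second probe set of Dnajb1 read 639, 761 and 856 in control rats and 946, 1852 and 1299 in ethanol rats, in the same order on the ethanol diet but with a smaller log2 difference of 0.78 (SE 0.24).
Dnaja1, a class A protein, read 1979, 2004 and 2289 in control rats and 2965, 3378 and 3096 in ethanol rats (log2 difference 0.58, SE 0.14).
Its dimmer probe set read 1054, 832 and 716 in control rats and 1455, 1978 and 1656 in ethanol rats, a larger log2 difference of 0.93 (SE 0.19).
The diets did not overlap on either probe set of Dnajb1 or Dnaja1.
Dnaja2 (probe set 1387780_at), the other class A protein among them, went the opposite way, from 2765, 2669 and 2325 in control rats to 1676, 1505 and 1544 in ethanol rats.
Its ethanol rats were all below the controls and within 1.11-fold of each other, and the log2 difference was -0.70 (SE 0.14).

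St13, which stabilises the closed, client-bound state of HSP70, gave different readings on its probe sets.
The brighter one, 1398848_at, read 2208, 2148 and 1875 in control rats and 975, 1182 and 1745 in ethanol rats, a log2 difference of -0.69 (SE 0.21).
The third ethanol rat was here close to the controls.
The dimmer one, 1398409_at, read 686, 677 and 550 in control rats and 660, 676 and 674 in ethanol rats, with a log2 difference of 0.07 (SE 0.14) and overlapping diets.
The lower reading of St13 thus rests on 1 of its 2 probe sets.

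The small heat shock proteins also parted.
Hspb1 (HSP27 in older naming), widely inducible, read 404, 451 and 647 in control rats and 970, 2966 and 2210 in ethanol rats.
No ethanol rat overlapped the controls, the first ethanol rat was again the lowest, and the log2 difference was 1.82 (SE 0.37).
Hspb6 (HSP20), best known from muscle, read 1168, 761 and 1062 in control rats and 593, 538 and 551 in ethanol rats, a log2 difference of -0.76 (SE 0.18).
The ethanol rats were nearly equal, within 1.10-fold, while the controls spanned 1.535-fold.
Of 11 muscle markers on the array, 3 were above the filter on low values, and their 11 summed to 3353 to 3537 intensity units in control rats and 2854 to 4126 in ethanol rats, with 3 of the 11 at or below 0 on at least 1 array and none at 0 on all.
Adipocyte markers, 5 genes on the array and 3 above the filter, summed to 4602 to 7038 in control rats and 8211 to 9335 in ethanol rats. The 3 did not go one way, with log2 differences of 0.77 for Lpl, 0.69 for Cfd and -0.13 for Fabp4. The part of either cell type in the reading of Hspb6 was not tested.

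The transcripts of the heat shock factors overlapped between diets.
Hsf1, the main activator of the inducible chaperones, read 473, 645 and 675 in control rats and 478, 417 and 507 in ethanol rats (log2 difference -0.31, SE 0.17).
Hsf2, a related factor, read 661, 866 and 846 in control rats and 763, 925 and 1088 in ethanol rats (log2 difference 0.21, SE 0.18).
Transcript levels do not report on the activity of either protein.

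**Figure D2:**
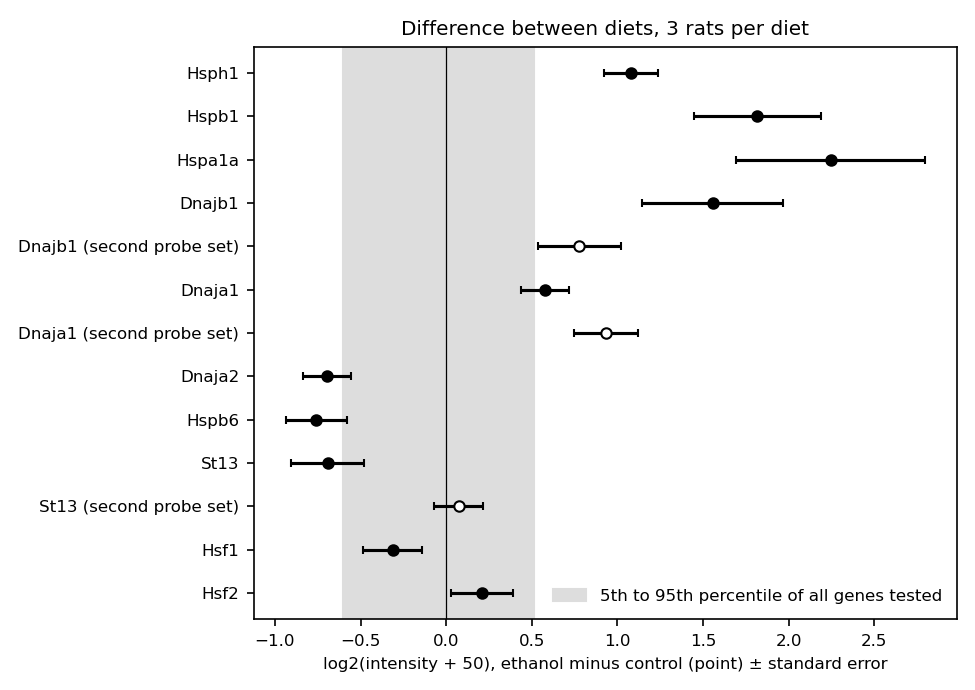
Difference between diets on the log2(intensity + 50) scale (x axis, ethanol minus control, point ± standard error from limma, 3 rats per diet) for the 13 probe sets, with second probe sets as open points. The grey band spans the 5th to 95th percentile of all 7106 genes tested, -0.60 to 0.51; Hspa1a at 2.24 and Hspb1 at 1.82 lie furthest outside it, and the second probe set of St13 lies at 0.07.

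Over the 6 arrays the 5 members that read higher on the ethanol diet followed each other closely.
Pearson's r of their log2 values ran from 0.867 (Hspa1a with Dnaja1) to 0.979 (Hsph1 with Dnaja1) over the 10 pairs, and Spearman's rho from 0.714 to 1.00.
All pairs share the same 6 arrays, and the difference between diets, by which the genes were chosen, is part of each r, so the values are descriptive.
With each diet's mean subtracted, so that only the spread between rats of one diet was compared, r of these 10 pairs ran from 0.483 to 0.896 with a median of 0.808.
The deviation of ethanol replicate 1 from its diet mean was -1.46 for Hspa1a, -1.08 for Dnajb1 and -0.90 for Hspb1, but -0.18 for Hsph1 and -0.08 for Dnaja1.
Without that rat the median within-diet r was 0.353, 8 of the 10 pairs stayed above 0, and the lowest was -0.844; with any other rat left out it was between 0.684 and 0.848.
The correlation within diets thus rested largely on ethanol replicate 1.

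The 3 members that read lower were correlated with each other through the diet difference.
Dnaja2, Hspb6 and St13 had pooled r from 0.692 to 0.876, and from -0.160 to 0.0155 once the diet means were subtracted.
The within-diet values of these 3 pairs changed with single rats: they ran from -0.209 to 0.974 without control replicate 2, from -0.541 to 0.509 without control replicate 3, from -0.106 to 0.534 without ethanol replicate 1 and from -0.569 to -0.180 without control replicate 1.
Dnaja2 had r = -0.995 with the brighter probe set of Dnaja1 over the 6 arrays, diet difference included, and -0.946 after subtraction. Both values were the lowest of all 45 pairs. On the dimmer probe set of Dnaja1 the mirroring did not hold in the controls. Control replicates 1, 2 and 3 fell there (log2 values 10.11, 9.78 and 9.58), as they did for Dnaja2 (11.46, 11.41 and 11.21). Its ethanol replicates ran in the opposite order to those of Dnaja2.
Hsf2 had pooled r from 0.508 to 0.828 with the 5 higher members, and within diets from 0.122 (Hsph1) to 0.849 (Hspa1a) with a median of 0.470.
Hsf1 had pooled r from -0.749 to -0.497 with the same 5, and within diets from -0.470 to 0.219 with a median of 0.0561. With Hspa1a, Hsf1 had r = -0.497 pooled, the least negative of the 5, and 0.164 within diets, while Hsf2 had 0.828 pooled.

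**Figure D3:**
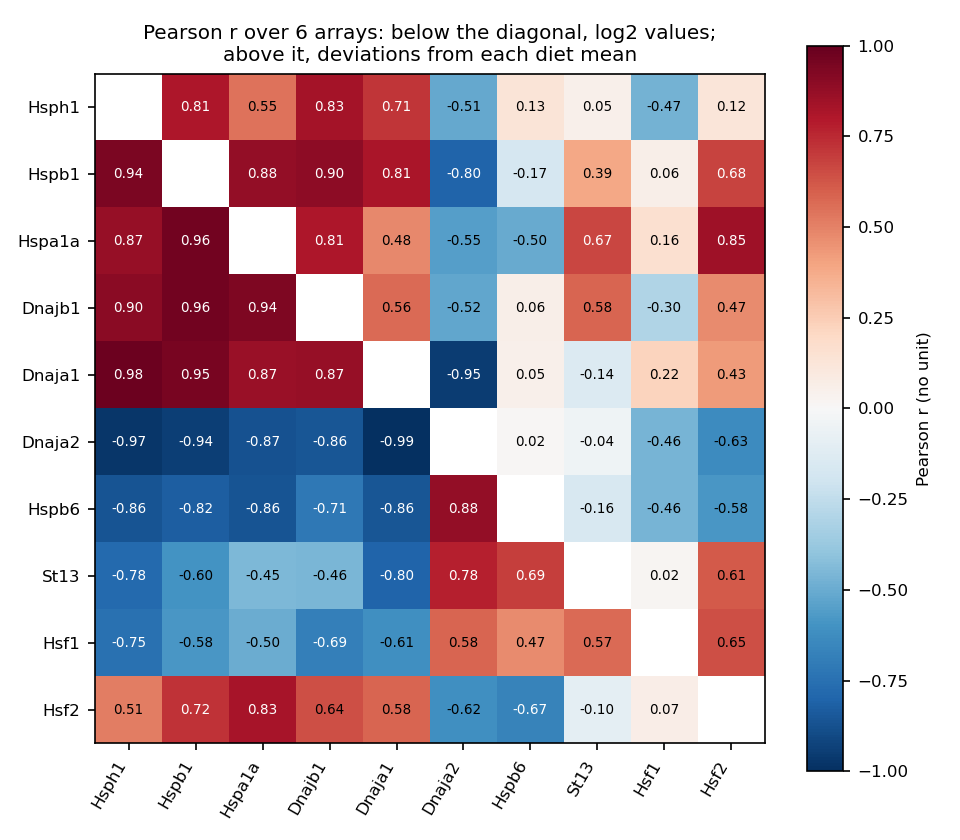
Pearson's r for each pair of the 10 genes over the 6 arrays, below the diagonal from log2 values and above it from deviations from each diet's mean. The 5 higher genes form a block from 0.867 to 0.979 below the diagonal and from 0.483 to 0.896 above it, whereas Dnaja2, Hspb6 and St13 are near 0 with each other above the diagonal.

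Among the 7096 other genes compared, the profiles most like that of Hspa1a over the 6 arrays by Pearson's r of log2 values were Igf2r (0.992), Ndufb5 (0.991), Synpo2 (0.987), Atf3 (0.982) and Magt1 (0.981).
Of these, Atf3, a stress-induced transcription factor, covered the widest range: it read -38, 200 and 162 in control rats and 388, 3413 and 3459 in ethanol rats, again with a low first ethanol rat. All control readings of Atf3 lay below the filter level of 392, so it passed the filter only through its ethanol arrays.
The other 4 had log2 differences between 0.24 and 0.42, so their likeness is one of shape and not of size.
For Hsph1 the closest were Spint2 (0.992), Ndufa4 (0.992), Tatdn2 (0.987), Retreg1 (0.982) and Plekhg3 (0.982), with log2 differences from 0.25 to 0.78 and limma adjusted p from 0.0613 to 0.342.

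Immediate early genes, a list of 16 of which 15 were on the array and 13 above the filter, had a summed level that was also lowest, among ethanol rats, in the first.
Their summed level was 11161, 13016 and 12153 in control replicates 1, 2 and 3, and 13985, 29825 and 30236 in ethanol replicates 1, 2 and 3.
None of the 13 passed limma's adjusted p of 0.05, beside 0.436% of all genes. Without adjustment, 6 were higher and 0 lower at a limma p under 0.05, beside 18.8% of all genes in either direction. The 6 include Atf3, which passed the filter only through its ethanol arrays. The median log2 difference of the 13, Atf3 included, was 0.54 against -0.01 over all genes.
Jun, the brightest of them by mean log2 value, read 1066, 1298 and 1508 in control rats and 2806, 6048 and 8483 in ethanol rats (log2 difference 2.00, limma adjusted p = 0.0657; other probe sets 1.83 and 1.46).
Klf2, the next by that mean, had a log2 difference of 0.45 (limma adjusted p = 0.161), with 0.04 and 0.98 on its other probe sets.
Erythroid markers, 5 on the array and 4 above the filter, summed to 15625 to 23125 in control rats and 25817 to 33618 in ethanol rats, with the first ethanol rat again the lowest of its diet and none of them at 0 on any array.
Islet markers summed to 116325 in the first ethanol rat, against 183130 and 176556 in the other two and 149662 to 183527 in control rats.
The part of any of these in the chaperone readings was not tested.

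**Figure D4:**
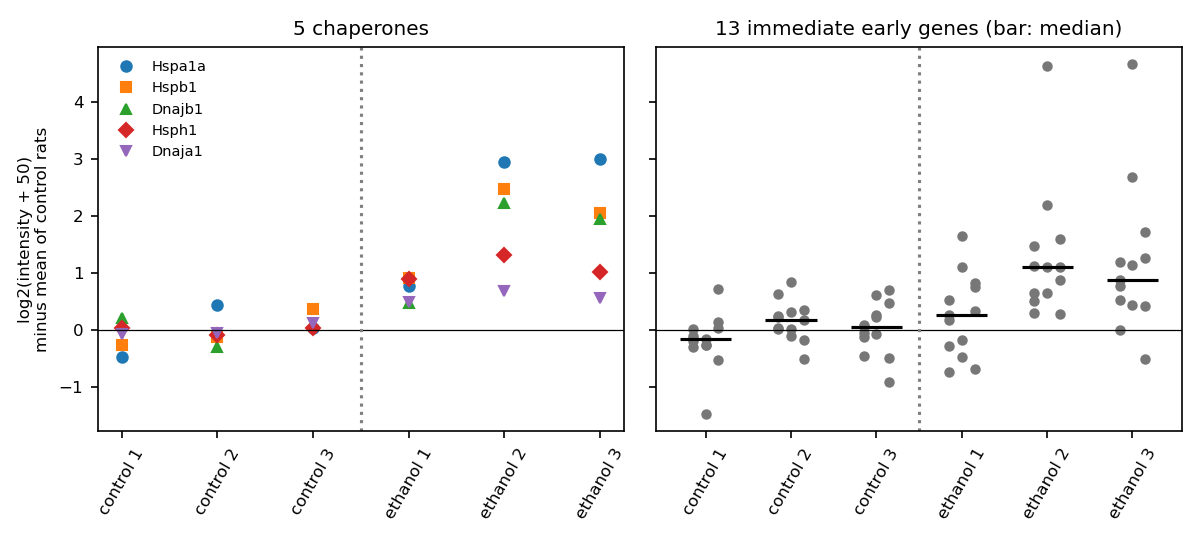
Log2(intensity + 50) on each array minus the mean of the 3 control rats (y axis) for the 5 higher chaperones (left) and for the 13 immediate early genes above the filter (right, grey points with the median as a bar). Ethanol rats 2 and 3 reach 2.95 and 3.00 for Hspa1a where rat 1 reaches 0.78, and the median of the immediate early genes is 1.10 and 0.89 in rats 2 and 3 and 0.26 in rat 1.

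None of the tested genes of the wider chaperone network was called, where 31 of all 7106 genes (0.436%) were.
Together 8 lists of 90 genes were drawn up around the members. Of these, 76 had a probe set of their own, and 63 of the 76 were above the filter. Limma called 0 of the 63 at an adjusted p of 0.05 (lowest 0.0858). As so few genes were called at all, nothing is read from that count.
Without adjustment, 1 was higher and 9 lower at a limma p under 0.05, 15.9% of the 63 against 18.8% of all genes, and the median log2 difference was -0.06 against -0.01 over all genes.
All 3 ethanol arrays lay above the controls for 3 of the 63 genes and below them for 12, beside 11.0% and 15.4% of all genes.
Constitutive HSP70 (Hspa8) and the inducible HSP90 gene Hsp90aa1 are absent from this count, since their probe sets are annotated to several genes.

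Of the HSP90 machinery, which receives clients from HSP70, 11 genes were tested. At a limma p under 0.05 without adjustment, 1 was higher and 1 lower, beside 18.8% of all genes in either direction.
Hsp90ab1, the constitutive HSP90, read 7587, 9064 and 8723 in control rats and 8786, 8247 and 9305 in ethanol rats (log2 difference 0.06, SE 0.14), and its other probe set gave -0.19.
Cdc37, which brings kinases to HSP90, was at -0.17 (SE 0.14).
Stip1 (HOP), the bridge between HSP70 and HSP90, read 2655, 1747 and 2590 in control rats and 3517, 3605 and 2761 in ethanol rats (log2 difference 0.51, SE 0.20, limma adjusted p = 0.238).
Sugt1, a co-chaperone chosen for mention after its values were seen, read 1241, 1077 and 1196 in control rats and 652, 760 and 536 in ethanol rats, with the lowest adjusted p of the lists (log2 difference -0.82, SE 0.16, limma adjusted p = 0.0858).

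The list of other regulators of HSP70 and of the heat shock factors had 9 genes tested, Hsf4 and Hsbp1 among them. Of the 9, 0 had an unadjusted limma p under 0.05, beside 18.8% of all genes.
Log2 differences were 0.17 (SE 0.13) for Bag1, a nucleotide exchange factor, 0.11 (SE 0.22) for the ubiquitin ligase Stub1 (CHIP) and 0.07 (SE 0.15) for Hikeshi, which carries HSP70 into the nucleus.
Bag3, an inducible exchange factor and HSF1 target named after its values were seen, read 965, 1087 and 889 in control rats and 884, 1160 and 860 in ethanol rats (log2 difference -0.03, SE 0.17), and its diets overlapped.
In the HSP70 family itself, Hspa4 (-0.05, SE 0.21) and Hspa13 (-0.62, SE 0.16, limma adjusted p = 0.115) were tested.

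Other J-domain proteins, 12 tested, had a median log2 difference of 0.00. At an unadjusted limma p under 0.05, 0 were higher and 1 lower, beside 18.8% of all genes in either direction.
Dnaja4, a class A relative of Dnaja1, read 2157, 1995 and 1667 in control rats and 1942, 2825 and 3216 in ethanol rats (0.42, SE 0.21, second probe set 0.45), the first ethanol rat lying among the controls.
Dnajb12, anchored in the endoplasmic reticulum membrane with its J-domain in the cytosol, was at 0.23 (SE 0.27), and Dnajc5, the cysteine string protein of secretory vesicles, at -0.13 (SE 0.20).
Of the remaining small heat shock proteins, Hspb7 (0.38, SE 0.18) and Cryaa (-0.17, SE 0.15) were tested, while Cryab, Hspb2, Hspb3 and Hspb8 were below the filter.

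The cytosolic chaperonin CCT, which folds actin and tubulin, and its partner prefoldin had 9 of 12 genes with a negative difference, a median log2 difference of -0.28, and 0 higher and 4 lower at an unadjusted limma p under 0.05; none passed the adjusted test.
Over all genes 3656 of 7106 differences were negative and the median was -0.01. Of all genes 18.8% had an unadjusted limma p under 0.05 and 0.436% passed the adjusted test.
Cct4 read 7362, 6725 and 6924 in control rats and 5607, 4816 and 4838 in ethanol rats (-0.46, SE 0.14, limma adjusted p = 0.156), Tcp1 was at -0.31 (SE 0.13) and Pfdn5 at -0.30 (SE 0.13).
Mitochondrial chaperones, 10 tested, had 0 higher and 2 lower by that measure and a median of 0.05.
Hspd1 (HSP60) was at 0.11 (SE 0.13) and Hspe1 (HSP10) at 0.15 (SE 0.14), while Hspa9, the mitochondrial HSP70, gave -0.33 (SE 0.16) on its brightest probe set and -0.18 and 0.50 on the others.
Of 5 further genes known as HSF1 targets outside the cytosolic chaperones, 0 had an unadjusted limma p under 0.05: Mrpl18 was at -0.20 (SE 0.14), the collagen chaperone Serpinh1 of the endoplasmic reticulum at 0.03 (SE 0.21) and Ier5 at -0.04 (SE 0.18).
Each list had as many positive and negative genes after quantile normalization and with equal array medians.

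**Figure D5:**
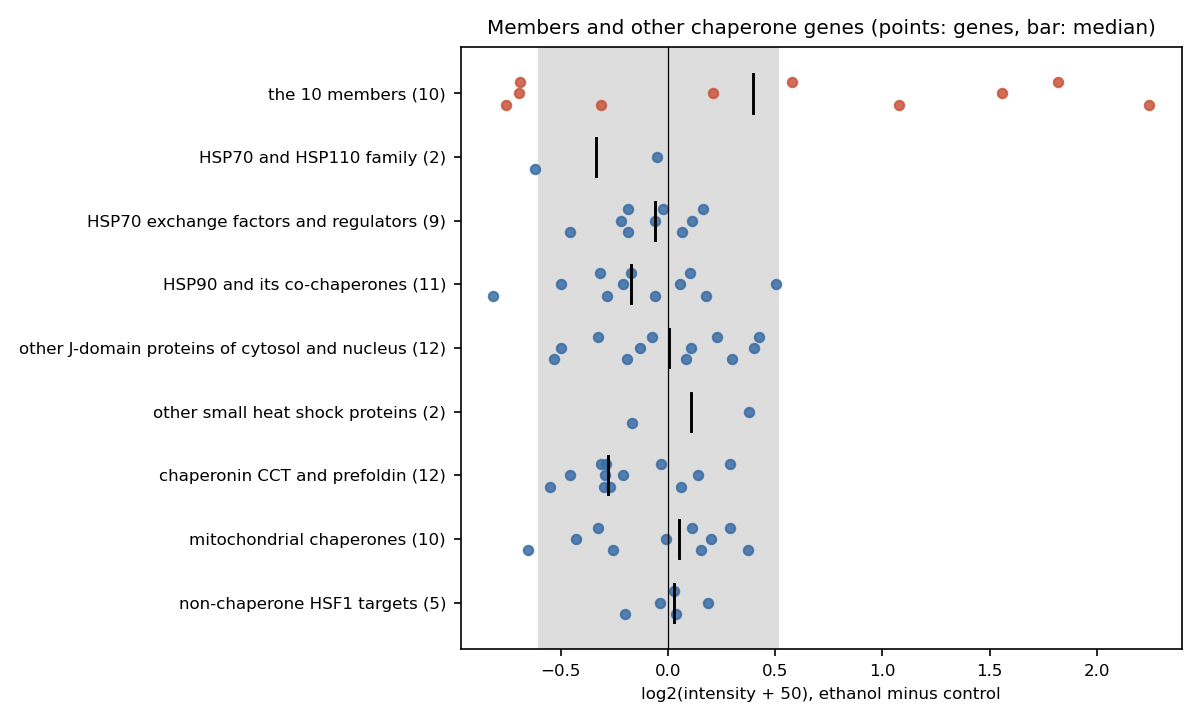
Log2 difference between diets (x axis, ethanol minus control) of the 10 members (red, chosen on this contrast) and of the 63 tested genes of 8 other chaperone and HSF1 target lists (blue), one point per gene with the list's median as a bar and the 5th to 95th percentile of all genes in grey. The 63 genes lie between -0.82 and 0.51 and 5 members lie above 0.51. Because the members were chosen by their differences and left out of the lists, nothing is read from that contrast.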

How the data were processed

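Values are intensities deposited by the authors, 1 per probe set and array: whole numbers on a linear scale, some of them below 0, with nearly equal array medians. Which scanner software and normalization made them is not given in the sources used here. After leaving out 57 control probe sets, values below 0 were set to 0, 50 was added and the log2 taken, so differences understate changes of dim probe sets. Probe sets with a mean at or above the 40th percentile (9520 of 15866) were fitted with limma 3.58.1 in R 4.3.3, by diet, with Benjamini-Hochberg adjustment over all of them. Differences carry limma's standard errors. Gene symbols come from the platform annotation and matched RefSeq gene IDs for all 10 members. A gene is read on its tested probe set of highest mean. The model was tested on simulated data. The number of arrays limits precision.

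The members, lists and naming rule were chosen with earlier results of these data known. The rule names all members, the 3 brightest genes of each list and any that pass, the 5 genes most like Hspa1a and the 5 most like Hsph1, and the 2 brightest genes of each marker list. Alternatives are given in the closing section.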

Additional observations from a re-analysis of the deposited data

How the results depend on the processing

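All 10 members kept the sign of their difference under the 12 settings tried for each: constants of 20 and 100, quantile normalization, equal medians, a replicate block, the mean of a gene's probe sets and each array left out. Part of this was fixed in advance. Where diets did not overlap, as for 8 members, leaving out an array could not change the sign, and the replicate block leaves each difference as it was. Leaving out 1 of 3 arrays also moves a diet mean by less than the standard deviation of its rats in any case. The differences of all members but Dnaja1 and St13 moved by less than the spread between rats. With probe sets averaged, Dnaja1 went from 0.58 to 0.76 and St13 from -0.69 to -0.31. With 1 array left out, Hspa1a ran from 1.87 to 2.98, Dnajb1 from 1.21 to 2.09, Hspb1 from 1.49 to 2.27, Hsph1 from 0.96 to 1.17, St13 from -0.92 to -0.51 and Hsf2 from 0.09 to 0.33.

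The 39 probe sets called over the whole array by limma were 12 with a constant of 20, 0 with every probe set kept (2263 when p was taken without adjustment at 0.05), 134 with a filter at the 60th percentile, 249 with a variance trend, 228 at an adjusted p under 0.10 and 2 to 38 with an array left out. With the replicate number as a paired replicate block they were 6. Deviations of same-numbered rats correlated with r of -0.03, 0.03 and -0.14, so they showed no likeness over the tested probe sets. The labels do not state whether the rats were paired, and these values cannot settle it.

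Of the other chaperone genes, 0 were called by limma in most settings, beside 0.436% of all genes in the main one. Sugt1 alone was called at the 60th percentile filter (1 gene) and at an adjusted p under 0.10 (1 gene). With a variance trend Sugt1 and Cct4 were called (2 genes). Leaving out each array gave 0 to 0 genes. The within-diet correlations without each array were added after the data were seen. For the 3 lower members their median was -0.05, and between -0.38 and 0.01 with an array left out. The 6 arrays limit what can be seen: the median standard error of a log2 difference was 0.18.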

Other observations

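Limma called 0 of the 58 tested genes of the cell type marker and immediate early lists, beside 0.436% of all genes. Without adjustment, 12 were higher and 0 lower at a limma p under 0.05, beside 18.8% of all genes in either direction. Of the 12, 6 were immediate early genes, 3 erythroid, 2 adipocyte and 1 fibroblast (Thy1). The 6 include Atf3, which passed the filter only through its ethanol arrays. By the brightest pair of each list, the log2 differences, ethanol minus control, were 0.02 for Cpa1 and 0.10 for Pnlip (acinar enzymes), -0.27 for Muc1 and -0.25 for Epcam (duct), and -0.09 for Ins2 and -0.17 for Ins1 (islet). Cpa1 and Pnlip read near the highest values of the arrays (163449 on the array with the lowest maximum). Whether the signal was compressed there was not tested. In the islet list 3 of 7 genes were positive and 4 negative. The others, named after their values were seen, were Gcg (0.38), Sst (0.52), Ppy (0.38), Iapp (-0.13) and Scg2 (-0.14). The log2 differences were 0.14 for Ckm and -0.12 for Myh11 (muscle), -0.05 for Col3a1 and -0.14 for Dcn (fibroblast), and 0.77 for Lpl and -0.13 for Fabp4 (adipocyte). In the fibroblast list 3 of 6 genes were positive, and Thy1, also named after its values were seen, was at 0.52 with 0.55 on its other probe set. They were -0.18 for Kdr and 0.15 for Eng (endothelial), 0.02 for Lyz2 and -0.52 for Cd74 (immune), and 0.81 for Hbb and 0.64 for Hba-a3 (erythroid).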
